A study of Apis mellifera with 24 samples.

Results

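Brain gene expression was compared between the worker bees of 2 honey bee families, L882 and L875. All 6 bees of each family were taken by their lineage label, which gives 12 of the 24 bees in the series. Both families are Eur x Afr crosses, written with the European mother first and the Africanized father second. L875 belongs to block A and L882 to block B, so that family and block cannot be told apart here. Each family gave 3 reproductive and 3 sterile workers (Apis mellifera) from colonies without a queen, at about 18 days, when a worker may have activated its ovaries. The RNA came from the dissected brain of 1 bee per library. The other families, L888 in block A and L894 in block B, are Afr x Eur and serve only for comparison. Their 12 bees were split by status in the same way. In the column headers of tables not used here, a letter that follows status in the other 3 families stands the other way round in L888, whose status was taken from the labels.

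A honey bee worker has a diploid genome, with one set of chromosomes from the queen and the other from a drone. Drones are haploid and transmit their whole genome, so workers fathered by the same drone receive the same paternal copies, whereas sisters differ in which of the queen's copies they receive. The sources used here do not give the number of drones behind each family. Workers without a queen can lay unfertilised eggs, and genotype is known to affect which workers do so. Genes are given below by identifier only. The table pairs no identifier with a name, and 0 of its 15314 identifiers occur in the reference table used, so that no role is stated for any gene, none of the 22 gene lists could be matched, and the brain label could not be checked against marker genes.

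Library size and composition overlapped widely between the families. Total expected counts (estimated reads per gene) ran from 7.97 M to 13.2 M in L875 and from 5.19 M to 14.4 M in L882. The 10 most abundant genes took 17.5% to 64.6% of the counts in L875 bees and 9.38% to 61.4% in L882 bees, and between 10567 and 11165 genes were detected in the 12 bees. None of 4 library measures differed between the families when family was permuted within status (exact test, two-sided, adjusted p from 0.787 to 0.895, smallest possible unadjusted p 0.005). The largest principal component of the 12 bees (27.5% of the variance) ran from L882 Reproductive 1, with the lowest share of abundant genes, to L875 Reproductive 1, with the highest, and did not separate the families. The second component (19.1%) did, with scores from 10.7 to 45.5 in L875 and from -34.05 to -11.8 in L882.

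**Figure D1:**
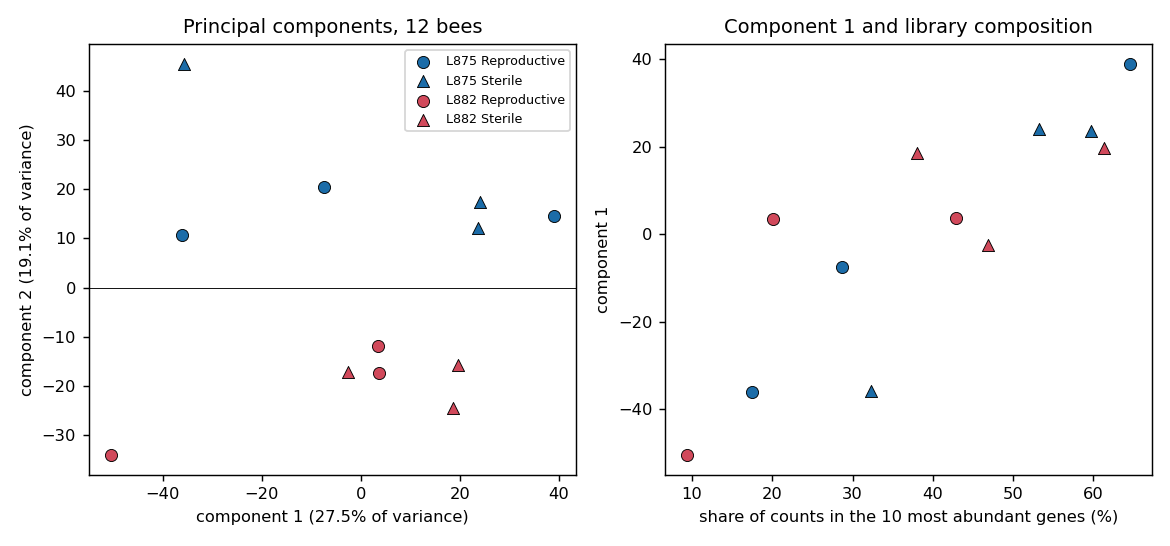
Left: scores of the 12 bees on the first and second principal component of log2 CPM, coloured by family and shaped by status. Right: the first component against the percentage of each library taken by its 10 most abundant genes. All 6 L875 bees lie above 0 and all 6 L882 bees below 0 on component 2, whereas on component 1 the families overlap and the lowest score is that of L882 Reproductive 1, with 9.38% in those genes.

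Between the families, 82 of 9761 genes differed in level with status as a covariate (0.840% of the genes tested, edgeR quasi-likelihood test, adjusted p below 0.05). Of these, 59 were lower in L882 (0.604%) and 23 were higher in L882 (0.236%). At an unadjusted p below 0.05, 1546 genes differed. The median log2 difference was -1.13 among the 59 lower genes, with a range from -9.45 to -0.57, and 1.78 among the 23 higher genes, with a range from 0.74 to 7.86. These medians are the same with the 1 gene per direction that had no count in 1 family set to its lower bound. A difference of at least 2-fold was found for 57 of the 82 genes, of at least 4-fold for 21 and of at least 8-fold for 10. In 14 genes, 7 in each direction, every bee of the lower family had under 1 CPM (a counts-per-million value, with TMM scaling).

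The count of called genes depended on single bees. It was 42 without L875 Reproductive 3, 54 without L875 Sterile 1, 47 without L882 Reproductive 2, 33 without L882 Sterile 1 and 39 without L882 Sterile 2. DESeq2 called 388 genes with the same design, and 81 of the 82 were among them, while for GB46236 it gave no adjusted p. Library composition moved with the count too: with the share taken by the 10 most abundant genes added to the model, 180 genes were called, all 82 included, and the part of composition in the family difference was not otherwise tested. Against a minimum difference of 1.5-fold, 18 genes passed. A core of 30 genes, 19 lower and 11 higher in L882, was called by edgeR in the full fit and in each of the 12 fits that left out 1 bee.

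**Figure D2:**
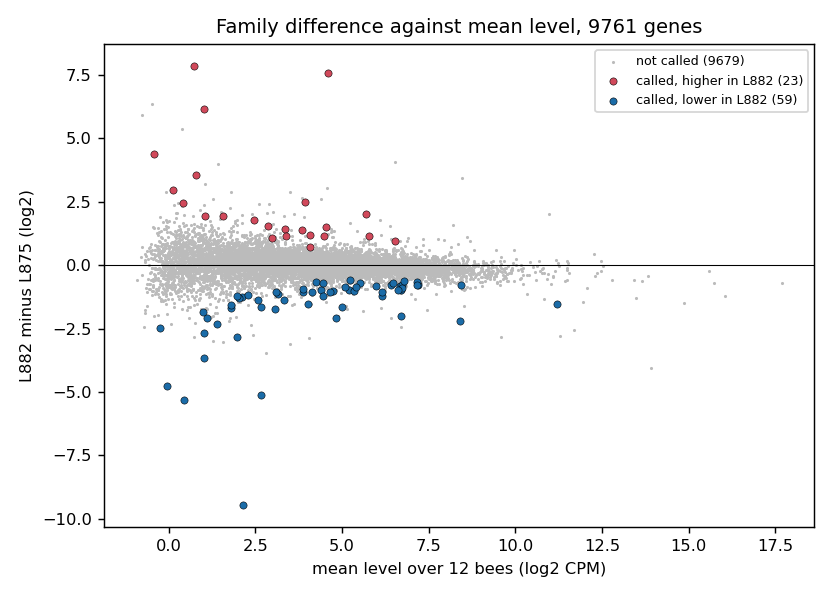
The log2 difference in level, L882 minus L875, of 9761 genes against the mean level over the 12 bees in log2 CPM. Red points are the 23 genes called higher and blue points the 59 genes called lower in L882, and grey points are the genes not called. Called genes span the whole range of levels, and those with differences beyond 8-fold lie mostly at low levels.

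Called genes occurred at every level of expression. When the 9761 genes were divided into 4 equal bands by their mean level, 1.02% of the lowest band were called, then 0.779%, 0.697% and 0.861% of the bands above. The median size of the difference in called genes went from 2.46 on the log2 scale in the lowest band to 0.89 in the highest. Among called genes of the highest band 18 were lower and 3 were higher in L882, and in the lowest band 16 were lower and 9 higher. In 70 of the 82 called genes the 6 bees of 1 family all lay above the 6 of the other. Across all genes tested this was so for 202 (2.07%), 134 lower (1.37%) and 68 higher (0.697%) in L882.

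GB55226 had the smallest p of all genes and differed evenly between the families. The L875 bees had 52.35, 47.6 and 47.8 CPM when reproductive and 44.7, 43.5 and 46.6 CPM when sterile. The L882 bees had 8.96, 13.8 and 12.01 CPM when reproductive and 8.83, 12.5 and 10.9 CPM when sterile. Every L882 bee was thus far below every L875 bee, whatever its status. The log2 difference was -2.07 (SE 0.14, adjusted p = 9.25e-06), with 47.1 ± 3.1 CPM in L875 and 11.2 ± 2.0 in L882 (SD, n = 6 each, edgeR). The other families were more spread. L888 bees ran from 15.2 to 46.65 CPM and L894 bees from 8.56 to 32.2 CPM, and in L894 the 3 reproductive bees (8.56, 12.1 and 12.2 CPM) were all below the 3 sterile bees (30.5, 32.2 and 22.2 CPM).

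GB48213 was the gene with the largest fall and was not detected at all in L882. In L875 its counts were 38, 139 and 84 in the reproductive bees and 54, 84 and 89 in the sterile bees, which is 8.87 ± 1.8 CPM (SD, n = 6). In L882 its count was 0 in 6 of 6 bees, which allows a level of up to 0.0469 CPM over the summed libraries (3 counts). The level was therefore at least 189-fold lower in L882, a bound that covers counting error only. The fitted log2 difference of -9.45 depends on the prior count added by edgeR, and its adjusted p was 1.28e-04. Sisters within the other families differed from each other in this gene. In L894, the counts were 95, 78 and 41 in 3 bees (Reproductive 2, Sterile 2 and Sterile 3) and 0 in the other 3. In L888, Sterile 2 had 66 counts and its 5 sisters had between 0 and 4.

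GB41278 was another gene with little expression in L882, named after its values were seen because it was called in both statuses. L875 bees had between 4.54 and 19.6 CPM, and L882 bees between 0 and 0.705 CPM. The families did not overlap, and the log2 difference was -5.12 (SE 0.55, adjusted p = 5.44e-04, edgeR). L888 bees had between 9.89 and 18.1 CPM, within the range of L875. In L894, 5 bees had between 0 and 0.483 CPM, within the range of L882, but Sterile 3 had 23.3 CPM.

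GB45748 was the gene with the smallest p among those higher in L882. Its counts in L875 were 1, 0 and 1 in reproductive bees and 0 in the 3 sterile bees. In L882 they were 28, 43 and 55 in reproductive and 31, 31 and 44 in sterile bees, or 3.60 ± 0.78 CPM (SD, n = 6). With 2 counts in all of L875, the ratio of L882 to L875 was 97.3 (95% counting interval 26.6 to 808), and the adjusted p was 1.28e-04 (edgeR). This gene followed the blocks in all 24 bees: L888 bees had at most 2 counts, as in L875, while L894 bees had 8 to 91 counts, or 1.17 to 7.81 CPM.

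GB46400 had the largest fitted rise, a log2 difference of 7.86 that depends on the prior count added by edgeR. It had no count in any L875 bee, and 25, 53 and 55 counts in the reproductive and 36, 10 and 7 in the sterile bees of L882. The level in L882 was 2.89 ± 1.8 CPM (SD, n = 6), at least 51.6-fold higher than the level that 3 counts over the summed L875 libraries allow (0.0559 CPM), with an adjusted p of 0.00949 (edgeR). In L894, the other family of block B, it had 2 counts in 1 bee and 0 in the other 5. In L888 it had 17 counts in Sterile 2, 2 in Sterile 1 and 0 in the other 4.

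**Figure D3:**
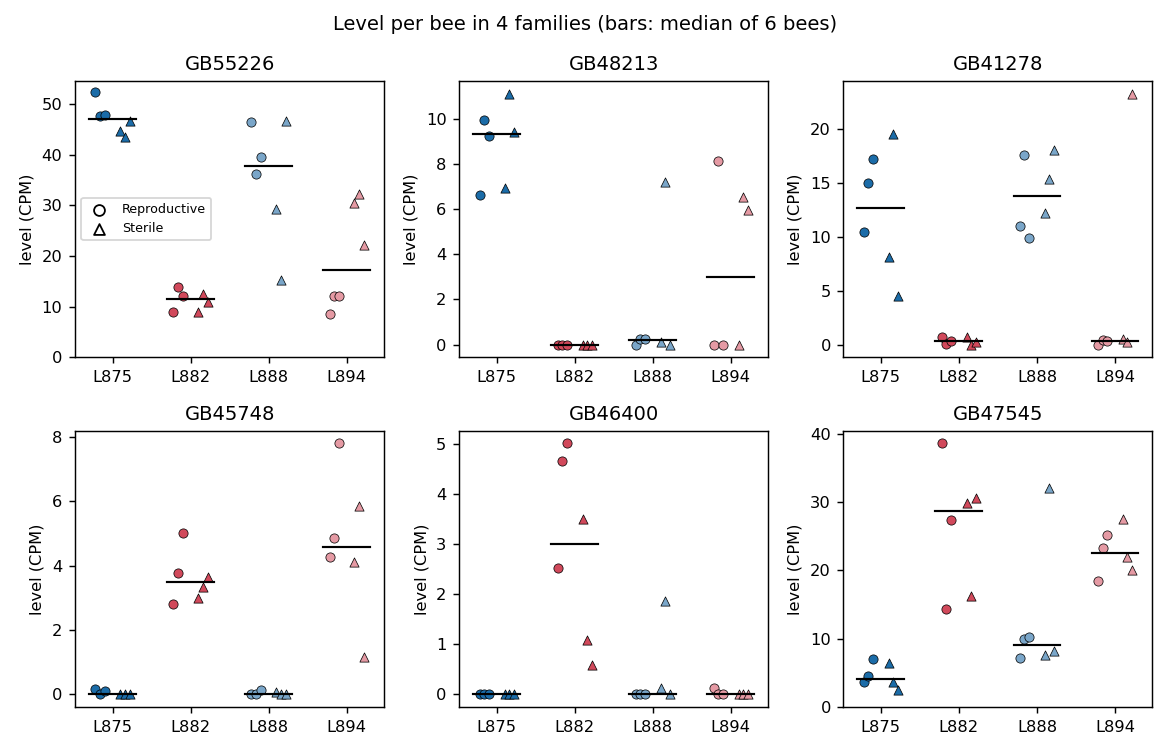
The level in CPM of 6 genes in each of the 24 bees by family, with circles for reproductive and triangles for sterile bees and a bar at the median of 6 bees. L875 and L882 do not overlap in any of the 6 genes. In GB48213, L888 Sterile 2 and L894 Reproductive 2, Sterile 2 and Sterile 3 stand near the L875 level, while their sisters stand near 0. In GB41278, L894 Sterile 3 stands above the L875 bees while its sisters stand near 0, and the L888 bees lie within the L875 range.

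In 4 called genes the L875 bees lay outside the range of all 18 other bees of the series. Over all 10071 genes tested in the 24 bees this occurred in 6 genes for L875 (0.0596%), in 2 for L882 (0.0199%), in 8 for L888 (0.0794%) and in 5 for L894 (0.0496%). In 0 of the 82 called genes did L882 lie outside that range. GB47545 was lower in L875, at 2.53 to 7.05 CPM, than in L882 at 14.4 to 38.7 CPM, L888 at 7.14 to 32.05 CPM and L894 at 18.5 to 27.5 CPM. The log2 difference between L882 and L875 was 2.50 (SE 0.30, adjusted p = 0.00141, edgeR). The nearest bee to the L875 range was a reproductive L888 bee at 7.14 CPM. GB55374 was likewise lower in L875, at 1.80 to 3.52 CPM, against 5.34 to 10.9 CPM in L882 and 4.08 to 12.5 CPM in L888 and L894 (log2 difference 1.78, SE 0.25, adjusted p = 0.0043, edgeR).

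GB50443 was the opposite case, a gene detected in every L875 bee and near 0 elsewhere. L875 bees had 12 to 48 counts, or 1.58 to 3.43 CPM, the 3 reproductive bees (3.13, 3.43 and 2.86 CPM) above the 3 sterile bees (1.80, 1.59 and 1.58 CPM). Each of the other families had 3 counts in total over its 6 bees. The ratio of L875 to L882 was 52.9 (95% counting interval 17.7 to 260), with an adjusted p of 5.99e-04 (edgeR). GB43248 was the most strongly expressed of these 4 genes, at 401.5 to 1105 CPM in L875 and 97.96 to 155.6 CPM in L882. L888 stood between them at 261.4 to 370.8 CPM. L894 lay below L888 and overlapped L882, at 122.6 to 233.7 CPM. The log2 difference between L882 and L875 was -2.19 (SE 0.27, adjusted p = 0.00153, edgeR). GB43248 was named after its values were seen.

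The family difference was next examined within each status. The group means of the reproductive and the sterile contrast share no bee, but both contrasts came from the same fit of all bees of both families. They thus share the estimates of spread, the size factors and the count filter, and are not separate analyses. Leaving out a sterile bee could therefore change the reproductive list. Among reproductive bees, 6 genes were called (0.0615% of 9761), 5 lower (0.0512%) and 1 higher (0.0102%) in L882. Among sterile bees, 8 genes were called (0.0820%), 5 lower (0.0512%) and 3 higher (0.0307%). Both contrasts called 4 genes, which is 66.7% of the reproductive and 50% of the sterile list. They were GB48213, GB55226, GB41278 and GB45748. All 6 genes called in reproductive bees had the same direction and an unadjusted p below 0.05 in sterile bees, and so had all 8 of the sterile list in reproductive bees. Of all 9761 genes, 635 had an unadjusted p below 0.05 in sterile bees and 867 in reproductive bees, in either direction. Over all 9761 genes, 68.3% had the same direction in both contrasts, and the log2 differences were related with Pearson's r = 0.53 and Spearman's rho = 0.50. Genes are not independent replicates and the contrasts share the families and the fit, so no p is given.

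Sizes were set side by side for the shared genes. GB45748 had a log2 difference of 5.50 (SE 0.73, adjusted p = 0.0392) in reproductive and 8.04 (SE 0.99, adjusted p = 0.0112) in sterile bees, values that depend on the prior count since L875 had 2 counts in the former and 0 in the latter. GB55226 had log2 differences of -2.08 (SE 0.21, adjusted p = 0.00249) in reproductive and -2.06 (SE 0.21, adjusted p = 0.00279) in sterile bees. GB41278 had -5.19 (SE 0.80, adjusted p = 0.0392) and -5.03 (SE 0.81, adjusted p = 0.0442). GB55374 was called in the sterile contrast, at 2.30 (SE 0.31, adjusted p = 0.0112), and not in the reproductive one, at 1.27 (SE 0.30, adjusted p = 0.291). The test of the difference between statuses gave an adjusted p of 0.9998 for this gene. That test called 0 genes of 9761 in edgeR (0.00%), with 118 at an unadjusted p below 0.05, and DESeq2 and limma also called 0. With 3 bees per group, this does not show that the family differences were equal in the statuses. The count in reproductive bees fell to 2 or 3 in 10 of the 12 fits that left out 1 bee, the exceptions being L875 Sterile 2 and 3. The count in sterile bees was 5 without L875 Sterile 3, 2 without L882 Sterile 2 and 4 without L882 Sterile 3.

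**Figure D4:**
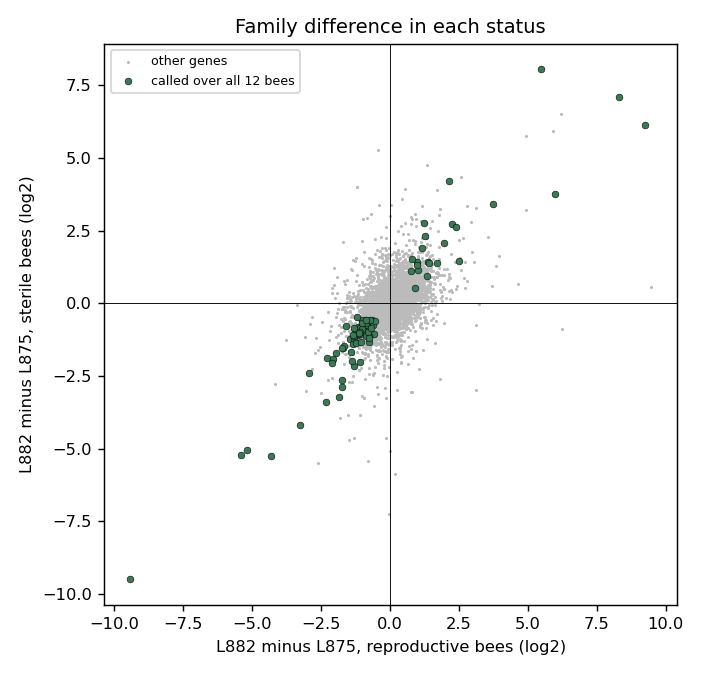
The log2 difference L882 minus L875 in sterile bees against that in reproductive bees, for 9761 genes. Green points are the 82 genes called over all 12 bees, whose shared direction follows in part from the choice, and grey points are all other genes. The points tilt along the diagonal, with r = 0.53 over all 9761 genes, the green points included.

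The other pair of families with 1 cross direction, L894 and L888, also differs in block (B against A) and shares no bee with L882 and L875. More genes were called there, though the counts were close against a minimum fold. In the same kind of fit 1385 of 9804 genes were called (14.1%), 740 higher (7.55%) and 645 lower (6.58%) in L894, and in 441 genes (4.50%) the 6 and 6 bees did not overlap. The common biological coefficient of variation was 31.3% in that pair and 34.9% in L882 and L875. The median Spearman correlation between bees was 0.961 within L888, 0.971 within L894 and 0.942 between them, against 0.953 within L875, 0.962 within L882 and 0.954 between these. The median between L875 and L882 thus lay between their medians within a family, while the median between L888 and L894 lay below both of theirs. With all libraries thinned to the smallest effective library size, an alternative chosen after seeing the data, 57 genes were called for L882 against L875 and 1212 for L894 against L888. Against a minimum difference of 1.5-fold the counts were close, with 24 genes for L894 against L888 and 18 for L882 against L875. Single bees moved the second count too. It was 449, 725 and 499 without L888 Reproductive 3, Sterile 1 and Sterile 3, and 655, 665, 640, 517 and 757 without L894 Reproductive 1, 2 and 3 and Sterile 1 and 3. Without L888 Sterile 2 it was 2281.

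Both pairs set block B against block A. Of the 80 genes called in L882 against L875 that were tested in both, 18 were also called in L894 against L888, which is 22.5% of the first list and 1.31% of the second, where 14.2% of all common genes were called. In 17 of the 18 the block B family was on the same side in both pairs. Of the 80 genes, 65 had the same direction in both pairs, against 53.5% of all 9657 common genes. Across those genes the log2 differences of the pairs were hardly related (Pearson's r = 0.10, Spearman's rho = 0.07, with genes not independent). The shared genes with the largest differences or smallest p were GB45748, described above, GB46236, GB47752 and GB42609.

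GB47752 and GB42609 were low in both families of block B. GB47752 had 1.06 to 2.22 CPM in L875 and 3 counts in all of L882 (ratio of L875 to L882 34.2, 95% counting interval 11.3 to 169). In L888 it had 0.261 to 2.07 CPM, and in L894 at most 2 counts in a bee. Its adjusted p was 0.00294 for the first pair and 0.00737 for the second (edgeR). GB42609 had 6.82 ± 2.0 CPM in L875 and 0.961 ± 0.35 in L882, and 4.39 ± 2.7 in L888 and 0.935 ± 0.46 in L894 (SD, n = 6 each). Its log2 differences were -2.83 (SE 0.31, adjusted p = 5.44e-04) and -2.20 (SE 0.39, adjusted p = 0.00806) in edgeR.

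GB46236 was the most variable of the shared genes. It had at most 8 counts in any L875 bee, and in L882 it ran from 5.54 CPM in Sterile 3 over 8.96, 9.95, 13.8 and 62.2 CPM to 193.9 CPM in Reproductive 1, so that sisters of L882 differed widely although all were above L875. In L894 it ran from 0 to 13.6 CPM. The log2 differences were 7.58 (SE 1.2, adjusted p = 0.0073) and 3.12 (SE 0.99, adjusted p = 0.0494) in edgeR, and the first did not pass in limma (adjusted p = 0.146). It was 6.29 without L882 Reproductive 1 and 9.06 without L875 Sterile 3, with the call kept in both. The 1 gene with opposite directions was GB42575, named after its values were seen. It had 2 counts in all of L875 and 7 to 16 counts in each L882 bee, while L888 had 0 to 35 counts and L894 had 0 to 3.

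**Figure D5:**
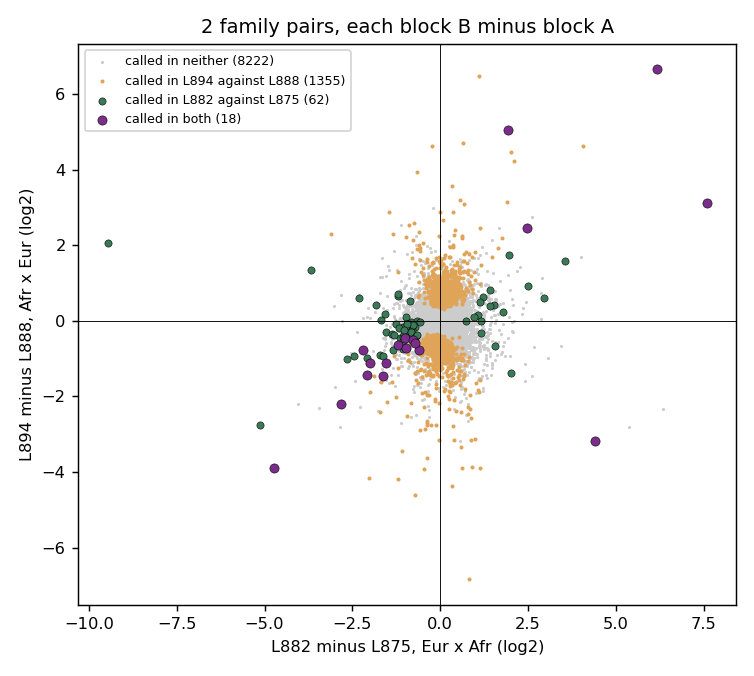
The log2 difference L894 minus L888 against L882 minus L875 for the 9657 genes tested in both pairs, each being block B minus block A. Purple points are the 18 genes called in both pairs, green those called in L882 against L875 alone and orange those called in L894 against L888 alone. The purple points lie at the lower left and upper right except for 1 gene, GB42575.

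The levels of L888 and L894 were set against the gap between the families for the 70 called genes that did not overlap, with the middle of the gap on the log2(CPM + 0.5) scale as the divide. L888 bees were all on the L875 side in 13 genes and all on the L882 side in 1 gene, GB50443. L894 bees were all on the L875 side in 3 genes and all on the L882 side in 16 genes. In 41 of the 70 genes, both families had bees on each side. In 3 genes the middle of the gap divided the bees wholly by block, and these were GB45748, GB43248 and GB55930. With the middle of the gap taken on the linear CPM scale, a setting tried after seeing the data, this held for 1 gene, GB55930. L894 Sterile 3 in GB45748 and L888 Sterile 2 in GB43248 then fell on the other side of the middle. The blocks themselves did not overlap in either gene: block A had at most 0.174 CPM of GB45748 and block B at least 1.17 CPM. For GB43248, block A had at least 261.4 CPM and block B at most 233.7 CPM. A divide at another level also parted the blocks in GB42609 (block A from 1.999 CPM, block B up to 1.69 CPM) and GB47752 (from 0.261 and up to 0.201 CPM, or 3 and 2 counts). Genes parted at any level were not counted over the called genes. GB55930 had 94.5 to 137.4 CPM in L875 and 98.2 to 136.8 CPM in L888, against 50.9 to 87.7 CPM in L882 and 62.65 to 79.9 CPM in L894 (log2 difference of L882 and L875 -0.72, SE 0.15, adjusted p = 0.0449, edgeR). Its call was lost in 15 of 24 alternatives, among them 11 of the 12 fits that left out 1 bee, the exception being L875 Sterile 3. It was named after its values were seen. By family means, both L888 and L894 were nearer to L875 in 21 of the 82 called genes, and both nearer to L882 in 16. L888 was nearer to L875 and L894 nearer to L882 in 37 genes, and the reverse held in 8. Neither the counts by side nor those by family means were made over all genes tested. They describe the called genes only and cannot show whether a division by block was more frequent among them than among genes at large.

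Whether the family difference was unlike in the pairs was tested directly over all 24 bees. The test called 22 of 10071 genes (0.218%), 11 in each direction (0.109% each). GB50921 had the smallest p of those with a positive value, and its values lay in L888. It had 20.03 to 29.99 CPM in L888 bees and between 0.419 and 2.14 CPM in the bees of the other 3 families, with no difference called between L882 and L875 (log2 difference 0.33, SE 0.42, adjusted p = 0.729, edgeR). GB44336 had the smallest p with a negative value (log2 -1.84, SE 0.30, adjusted p = 0.00451, edgeR). It was lower in L882, at 44.8 ± 7.7 CPM, than in L875, at 102.7 ± 29.6, while L894 had 75.1 ± 17.1 and L888 had 48.25 ± 17.5 (SD, n = 6 each). GB49689 went the same way, with 3.57 ± 0.93 CPM in L875, 0.263 ± 0.38 in L882, 1.01 ± 0.78 in L888 and 3.14 ± 2.7 in L894 (SD, n = 6 each; log2 -5.14, SE 1.0, adjusted p = 0.0405, edgeR), and its log2 value was -6.13 without L882 Reproductive 2. GB46400 had the largest positive value, a fitted log2 difference of 10.82 that depends on the prior count, with an adjusted p of 0.0488 (edgeR). Without L888 Sterile 2 the value for GB46400 was 8.03 (adjusted p = 0.0608, edgeR), and in limma it was 5.79 (adjusted p = 0.0847). The call was lost in 20 of 31 alternatives for GB46400 and in 14 of 31 for GB49689, and in 0 for GB50921 and GB44336. Leaving out 1 bee gave 11 to 14 genes in 13 of 24 cases. It gave 140 without L875 Reproductive 2, 399 without L888 Reproductive 1, 137 without L888 Sterile 2, 78 without L882 Sterile 3 and 37 without L894 Sterile 2.

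The spread among sisters also differed between the families. Around the status means, the median SD of the log2 level over genes was 0.408 in L875 and 0.317 in L882, and 34.2% of genes had the larger SD in L882. The values were 0.377 in L888 and 0.284 in L894. No test was made of these spreads. Among the genes above, GB55226 was the most even in L875, with an SD of 3.07 CPM around 47.1. GB43248 was uneven there, with an SD of 273.1 CPM around 572.6 CPM, against 23.02 around 125.1 CPM in L882.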

How the data were processed

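PolyA RNA of 24 single brains was sequenced as paired ends over 2 lanes, per the labels. The authors deposited a table of expected counts (estimated read counts, not scaled to a common total) for 15314 identifiers. HISAT2 and limma are listed in the submitters' processing notes. Counter, build and annotation: not given in the sources used here. Tables of reads per parental allele were not used here. Family, status and block came from the labels, and replicate numbers in accession order name bees only. Sisters of a group differed by 8.67 to 199 times the sampling noise, so none was a repeat.

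Counts were rounded and filtered with filterByExpr, which left 9761 genes, and tested with edgeR 4.0.16 in R 4.3.3 (TMM factors, quasi-likelihood, two-sided, Benjamini-Hochberg over all genes tested, threshold 0.05). The fit of the 12 bees had family and status as terms. Contrasts within a status used 1 mean per family and status, and the test between pairs used 24 bees. SEs follow from the F statistic. Printed CPM use TMM factors over 24 bees, and principal components used log2(CPM + 0.5). Counting intervals are exact binomial and, like floors, cover counting error only. p-values measure the spread between sisters, not between families. Alternatives were other size factors and filters, DESeq2 1.42.0, limma 3.58.1 (voom), other designs and each bee left out. Genes named had the largest difference or smallest p per direction, at most 2 per direction and comparison, apart from those said to be named later. The families, lists and rules were chosen with earlier results of these data known.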

Additional observations from a re-analysis of the deposited data

Results flagged for a closer look

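The bees were taken in 42 sets of 6 (named genes and library measures in L875 and L882). Sets with no or very few counts in total were passed over, so fewer than 42 were tested. In 5 sets, the gap of a bee to the next one, relative to the range of its family, passed Dixon's critical value at 95%. For normally distributed values chance gives about 1 in 20 of the sets tested. That rate need not hold here, since CPM were used on the linear scale and the genes were named from these same data. In each of the 5 sets the bee was the highest of its family. GB46236 had 193.9 CPM in L882 Reproductive 1, the smallest library of the series, and 0.845 CPM in L875 Sterile 3. GB43248 had 1105 CPM in L875 Sterile 3. GB42609 had 10.7 CPM in L875 Sterile 1, and GB55374 had 3.52 CPM in L875 Reproductive 3.

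The family difference was unlike in the Eur x Afr and Afr x Eur pairs for 22 genes by the test of the difference itself. The log2 values of that difference were 10.8 for GB46400 (a fitted value that depends on the prior count, and 8.03 without L888 Sterile 2), 4.70 for GB50921, -5.14 for GB49689 and -1.84 for GB44336.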

How the results depend on the processing

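The 82 calls between the families (23 higher and 59 lower in L882) numbered 388 (131 and 257) in DESeq2, 18 (7 and 11) with a minimum of 1.5-fold, and 180 (54 and 126) with the percentage of counts in the top 10 genes as a covariate, which kept all 82. They stayed within 1.5 times under the other size factors and filters, limma, 24 bees, no status term, 1 mean per group and thinning. Leaving out single bees gave 33 to 96 genes, with 12 to 20 higher and 21 to 76 lower. For the contrast in reproductive bees (6 genes) DESeq2 called 46 and single bees left out gave 2 to 7. For the contrast in sterile bees (8 genes) DESeq2 called 77 and single bees left out gave 2 to 9. The test by status gave 0 under each alternative run, including each bee left out. L894 against L888 gave 24 genes with a minimum of 1.5-fold and 449 to 2281 with single bees left out. The test between the pairs (22 genes) gave 358 in DESeq2, 13 with upper quartile factors and 11 to 399 with single bees left out. With the status of L888 exchanged, tried after seeing the data, these 2 counts were 1296 and 15. The middle of the gap divided the bees wholly by block in 3 of the called genes on the log2 scale and in 1 on the linear scale. Only the place of that middle changed, and the blocks did not overlap in any of the 3 genes on either scale. The causes were not tested. No direction of a named gene turned in 453 gene values, and 50 lost the call: 15 for GB55930, 1 for GB46236 and, in the test between the pairs, 20 for GB46400 and 14 for GB49689. Alternatives in which a gene was filtered out or had no adjusted p are not among these values. Between the families, GB47752 and GB42575 thus had values in 22 alternatives and GB46400, GB46236 and GB50443 in 23, where the other named genes had 24. The highest adjusted p over the alternatives was 3.04e-04 for GB55226 and 0.0276 for GB48213. No paired analysis was made, because the bees compared are of different families and the labels link no L882 bee to an L875 bee. The labels also give no replicate numbers. Genes under about 1 CPM rest on a few counts per bee, where a lower level was not detectable at this depth.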

Other observations

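One bee outside the compared families, L888 Sterile 2, stood apart from its 5 sisters in several of the genes named above, a pattern noticed after their values were seen. It had 7.20 CPM of GB48213 where its sisters had at most 0.259 CPM, and 1.85 CPM of GB46400 where they had at most 0.133 CPM. It had 32.05 CPM of GB47545 against 7.14 to 10.2 CPM, and 15.2 CPM of GB55226 against 29.3 to 46.65 CPM. Its mean Spearman correlation with its sisters was 0.9495, within the range of 0.941 to 0.965 over the 6 bees of L888. The part of this bee in the comparisons that use L888 is given by the counts without it.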
